A study of Homo sapiens with 2 samples.

Results

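Aminoacyl-tRNA synthetases, the enzymes that join each amino acid to its tRNA, were measured by RNA sequencing in A549, an established line of human lung adenocarcinoma cells. The members were the genes in the count table whose symbol is an amino acid letter followed by ARS, with or without a final 1 or 2, together with EPRS, FARSA, FARSB, TARSL2, AIMP1 and AIMP2. The rule found 40 of 39720 gene symbols, which are 21 cytosolic enzymes, 17 mitochondrial enzymes (names ending in 2) and 2 scaffold proteins. AIMP2 and TARSL2 end in 2 by name but act in the cytosol, and they were grouped with the scaffold proteins (AIMP2) and the cytosolic enzymes (TARSL2). All 40 had at least 30 counts in the higher library, the minimum for a gene to be assessed, and 13850 genes of the table met it.

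The cells were infected with lentivirus that carried a hairpin RNA to silence DEPDC1B (shDEPDC1B), and the control cells (shNC) with one for a negative control hairpin. Polybrene was present at 5 µg/mL in both groups, and RNA was taken on day 2. The question of the series is the function of DEPDC1B, which has a DEP domain, in this cancer. Each group has 1 library, with 18862371 counts in shDEPDC1B and 18647290 in shNC, so no p-value could be computed and no difference has a replicate check: what is compared is 1 library with another. The sources used here give neither the number of hairpins nor their sequences nor any selection of infected cells. DEPDC1B itself had 39 counts in shDEPDC1B and 329 in shNC, which is 12.5% of the shNC level. All 10 A549 and epithelial markers checked had at least 30 counts, and of 5 markers each for leukocytes, fibroblasts and endothelium 1, 1 and 0 did.

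Cytosolic synthetases supply charged tRNA to ribosomes in the cytosol, and a separate set, encoded in the nucleus and imported, serves the ribosomes of mitochondria. Several cytosolic enzymes are held together in the multi-synthetase complex by the scaffold proteins AIMP1, AIMP2 and EEF1E1. When amino acids run short or the endoplasmic reticulum is stressed, the kinases GCN2 and PERK raise the transcription factor ATF4, and many cytosolic synthetase genes are known targets of ATF4 whereas mitochondrial ones mostly are not. Synthetases fall into class I and class II by the fold of their catalytic domain, and GARS and KARS each encode both the cytosolic and the mitochondrial form of their enzyme.

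Most members differed by less than 1.5-fold between the libraries. At least 1.5-fold higher in shDEPDC1B, with an interval that excludes equality, were 6 of 40 members (15%), against 19.2% of all assessed genes. At least 1.5-fold lower were 3 of 40 (7.5%), against 19.6% of all. The 6 were the mitochondrial enzymes CARS2, SARS2 and FARS2, the cytosolic enzymes QARS and FARSA, and the scaffold protein AIMP2, and the 3 were the cytosolic TARS and the mitochondrial LARS2 and EARS2. In bulk RNA, a lower level in every cell and fewer cells that hold a transcript cannot be told apart. Ratios are of counts scaled by trimmed means of the whole table, and values in square brackets are exact 95% intervals, which cover counting error alone. With library totals as the scale, 3 members were higher (CARS2, SARS2 and QARS) and 5 lower (TARS, LARS2, EARS2, DARS and TARSL2). On that scale 14.6% of all assessed genes were higher and 23.2% lower. Counting precision was high, so that the intervals of 32 of 40 members (80.0%) excluded equality, against 73.8% of all assessed genes. Of these, 17 members (42.5%) lay above equality, against 38.9% of all, and 15 (37.5%) below it, against 34.9% of all.

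**Figure D1:**
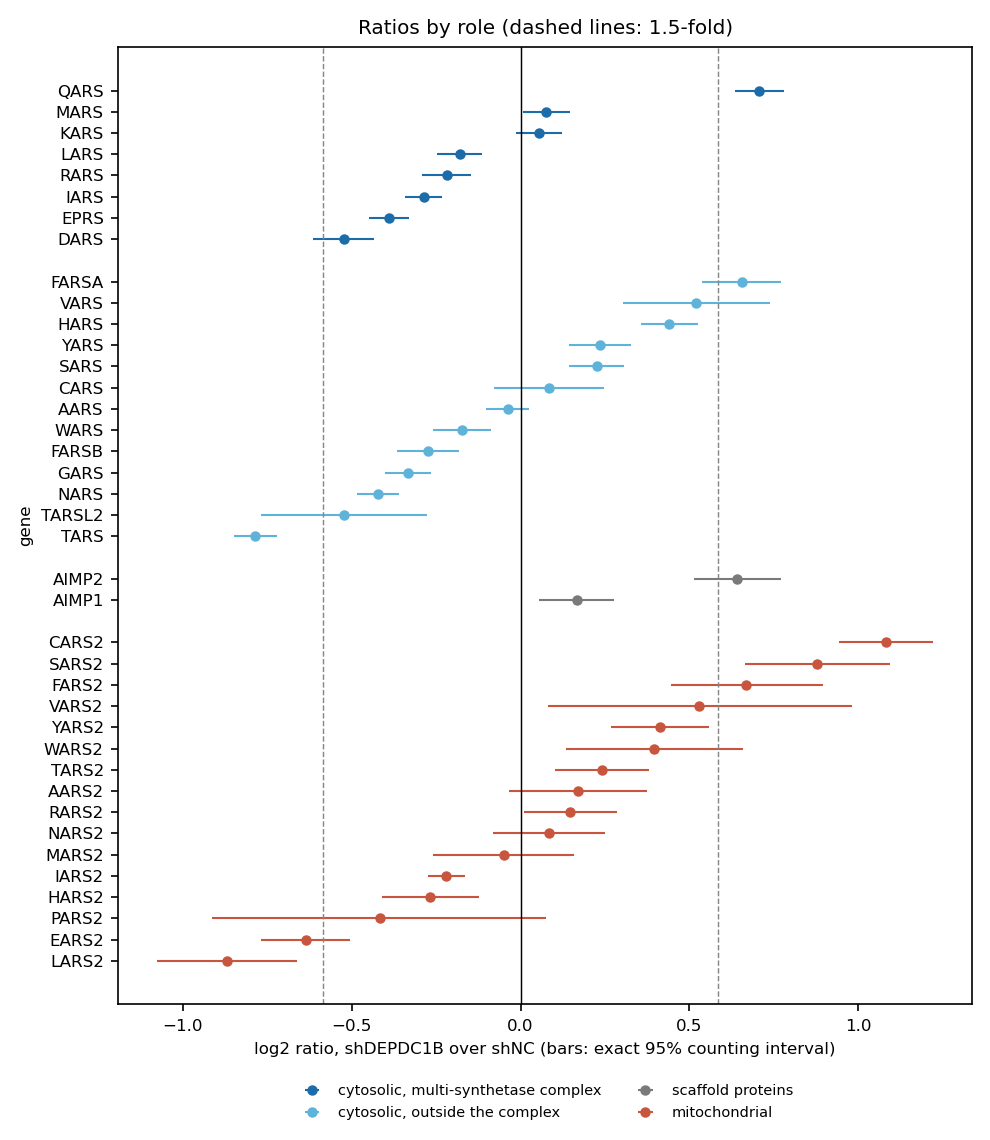
Log2 ratio of scaled counts, shDEPDC1B over shNC (x axis), for 39 of the 40 genes (y axis), grouped by role. Points are ratios, bars exact 95% counting intervals and dashed lines 1.5-fold; the ratios run from 1.08 for CARS2 to -0.87 for LARS2, and 30 of the 39 points are not past 1.5-fold in either direction.

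The cytosolic enzymes had a median log2 ratio of -0.17, against 0.04 for all assessed genes, and ran from -0.79 to 0.71. Of 21, 2 were at least 1.5-fold higher (9.52%, against 19.2% of all assessed genes) and 1 lower (4.76%, against 19.6%). Among the 8 enzymes of the multi-synthetase complex the median was -0.20, and 1 was past 1.5-fold (12.5%, against 38.8% of all assessed genes). That gene was QARS (chr3:49095932-49105135, minus strand), the glutaminyl-tRNA synthetase, which had 3907 counts in shDEPDC1B and 2529 in shNC, or 214.2 and 131.2 CPM (counts scaled to a common library size). Its log2 ratio of 0.71 [0.63, 0.78] stands apart from the other 7 enzymes of the complex, which ran from -0.52 to 0.08. DARS, the aspartyl enzyme, had 1653 counts in shDEPDC1B and 2511 in shNC (-0.52 [-0.61, -0.43]). EPRS, which joins the glutamyl and prolyl enzymes in one protein, had 3989 and 5525 counts in the same order (-0.39 [-0.45, -0.33]). The isoleucyl enzyme IARS, the arginyl RARS and the leucyl LARS had log2 ratios of -0.29, -0.22 and -0.18, with intervals below equality. KARS, the lysyl enzyme, had 3516 counts in shDEPDC1B and 3580 in shNC, and its interval spans equality. MARS, the methionyl enzyme, was at 0.08 [0.01, 0.15], and its sign turned with library totals as the scale.

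Outside the complex, the threonyl enzyme TARS (chr5:33440696-33469539, plus strand) had the lowest ratio of all cytosolic members. It had 3145 counts in shDEPDC1B and 5728 in shNC, or 172.4 and 297.1 CPM, a log2 ratio of -0.79 [-0.85, -0.72]. Its paralog TARSL2 had 228 counts in shDEPDC1B and 346 in shNC (-0.52 [-0.77, -0.28]), so both cytosolic threonyl genes were lower. The asparaginyl NARS, with 3489 counts in shDEPDC1B and 4942 in shNC, was at -0.42 [-0.49, -0.36], the glycyl GARS at -0.33 [-0.40, -0.26] and the tryptophanyl WARS, which interferon is known to induce, at -0.17 [-0.26, -0.09]. Higher in shDEPDC1B were HARS, the histidyl enzyme, with 2627 counts in shDEPDC1B against 2046 in shNC (0.44 [0.36, 0.52]), the tyrosyl YARS (0.24 [0.14, 0.33]) and the seryl SARS (0.23 [0.14, 0.31]). AARS and CARS, for alanine and cysteine, had intervals that span equality (-0.04 [-0.10, 0.02] and 0.08 [-0.08, 0.25]).

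The 2 subunits of the cytosolic phenylalanyl enzyme, which is built from an equal number of each, lay on opposite sides of equality. FARSA (chr19:12922479-12934037, minus strand), the catalytic alpha subunit, had 1501 counts in shDEPDC1B and 1008 in shNC, a log2 ratio of 0.65 [0.54, 0.77]. FARSB (chr2:222570536-222656337, minus strand), the beta subunit, had 1728 counts in shDEPDC1B and 2207 in shNC, a log2 ratio of -0.27 [-0.36, -0.18]. FARSA has a transcript of 2057 nucleotides and FARSB one of 3369, and after a smooth trend of the ratio on transcript length had been subtracted they were at 0.31 and -0.32. After a linear fit on length and GC content they were closer together, at 0.21 and -0.14. The valyl enzyme VARS had 415 counts in shDEPDC1B and 306 in shNC (0.52 [0.30, 0.74]). The deposited values of VARS, VARS2 and CARS are not whole hundredths, unlike those of the other members, and become so when multiplied by 7, 3 and 2 in that order. Where such a value is an average over several entries of a gene, its counts and levels are understated by about that factor, so the counts, levels and intervals of these 3 genes are uncertain.

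The 12 cytosolic enzymes listed as known ATF4 targets had a median log2 ratio of -0.18. None of the 12 was at least 1.5-fold higher and 1 (TARS, 8.33%) was lower, against 19.2% and 19.6% of all assessed genes. The other 9 cytosolic enzymes had a median of 0.05, with 2 higher (QARS and FARSA, 22.2%, against 19.2% of all) and none lower (against 19.6%). Of the 12, the intervals of 7 lay below equality and those of 3 above, against 34.9% and 38.9% of all assessed genes. Of the other 9, 4 lay below and 4 above, against the same shares. The log2 ratios of the 12 ran from -0.79 to 0.24 and those of the other 9 from -0.52 to 0.71. The 2 ranges therefore overlapped widely. The order of the medians turned after the length trend, with -0.14 for the 12 and -0.20 for the other 9, and after a linear fit on length and GC content they were -0.11 and -0.05. QARS and FARSA were not past 1.5-fold after either fit. ATF4 had 2015 counts in shDEPDC1B and 2575 in shNC (-0.27 [-0.36, -0.19]), which is not past 1.5-fold either.

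The promoters of this family were searched because some of them hold the core of the sequence through which ATF4 is known to act, the amino acid response element. Windows from 250 bases before to 50 after each annotated start (RefSeq, GRCh38.p14) were found for 32 of the 40 members, and AARS2, DARS, LARS, TARSL2, VARS, VARS2 and YARS were among those with none. The core letters TGATGNAA, read on both strands, were present in 7 of 16 cytosolic genes, AARS, CARS, GARS, IARS, MARS, NARS and TARS, and in 1 of 14 mitochondrial genes, YARS2. By window, 7 of 21 cytosolic windows held them (33.3%), against 3.62% of all 35116 windows and 1.97% of 15053 windows of assessed genes. The 7 sites are given 5′ to 3′ on the strand of the gene, with the 8 letters of the match in capitals.

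AARS: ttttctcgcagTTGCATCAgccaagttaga

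CARS: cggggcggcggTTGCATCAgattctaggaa

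GARS: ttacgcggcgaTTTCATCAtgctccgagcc

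IARS: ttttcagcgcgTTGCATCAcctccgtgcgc

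MARS: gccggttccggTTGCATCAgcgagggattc

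NARS: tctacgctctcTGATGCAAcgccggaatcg

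TARS: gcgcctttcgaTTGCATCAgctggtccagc

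In 6 of these the match is on the other strand, so that the gene strand reads TTGCATCA, or TTTCATCA in GARS, and in NARS it is on the gene strand. The printed stretches lie at chr16:70289675-70289704 (AARS, minus strand), chr11:3057407-3057436 (CARS, minus), chr7:30594834-30594863 (GARS, plus), chr9:92293692-92293721 (IARS, minus), chr12:57488053-57488082 (MARS, plus), chr18:57621804-57621833 (NARS, minus) and chr5:33440956-33440985 (TARS, plus). All 7 genes are among the 12 listed ATF4 targets. Their log2 ratios ran from -0.79 (TARS) to 0.08 (CARS) with a median of -0.29, and the 9 cytosolic genes whose window lacks the letters ran from -0.39 (EPRS) to 0.71 (QARS) with a median of 0.05. After the length trend the order of these medians turned, at -0.12 with the letters and -0.17 without, and after the fit on length and GC content they were -0.13 and -0.08. A match of letters describes the sequence and is not a measurement of binding.

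Of the other letters searched, the ETS core CCGGAAG was present in 16 of 32 members, 9 cytosolic and 7 mitochondrial. Counted by window it was in 43.2% of the members' 44 windows, against 10.3% of all windows and 16.6% of those of assessed genes. The core of the site for the respiratory factor NRF1, GCGCA and GCGC with 1 free base between them, was in 7 of 32 members. They were the cytosolic FARSB, SARS and TARS, the mitochondrial IARS2, MARS2 and PARS2, and AIMP2. By window it was in 20.5% of the members' windows, against 5.78% of all windows and 9.75% of those of assessed genes. It was in 23.8% of cytosolic and 16.7% of mitochondrial windows. The E-box CACGTG, which MYC family factors bind, was in 5 of 32 members, AIMP2, CARS2, EARS2, IARS and MARS2. By window the E-box was in 13.6% of the members' windows, against 7.26% of all windows and 9.25% of those of assessed genes. CARS2 and EARS2, both with an E-box, had ratios of opposite sign.

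The scaffold proteins were both higher in shDEPDC1B. AIMP2 (chr7:6009245-6023834, plus strand) had 1220 counts in shDEPDC1B and 827 in shNC, or 66.9 and 42.9 CPM, a log2 ratio of 0.64 [0.51, 0.77]. AIMP1, which is also the precursor of a secreted cytokine, had 1344 counts in shDEPDC1B and 1266 in shNC (0.17 [0.05, 0.28]). EEF1E1, the third scaffold protein of the complex and not covered by the naming rule, had 648 counts in shDEPDC1B and 512 in shNC (0.42 [0.25, 0.59]). The AIMP2 transcript is the shortest among the members at 1225 nucleotides, and after the length trend AIMP2 was at 0.12 and AIMP1 at -0.05. After the fit on length and GC content AIMP2 was at 0.15 and AIMP1 at 0.29, so the 2 fits differ in sign for AIMP1.

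The mitochondrial enzymes had a median log2 ratio of 0.15 and ran from -0.87 to 1.08. Of 17, 3 were at least 1.5-fold higher (17.6%, against 19.2% of all assessed genes) and 2 lower (11.8%, against 19.6%). CARS2 (chr13:110641412-110713603, minus strand), the mitochondrial cysteinyl enzyme, had 1255 counts in shDEPDC1B and 627 in shNC, or 68.8 and 32.5 CPM. Its log2 ratio of 1.08 [0.94, 1.22] is the highest of the 40, and CARS2 was the only member past 2-fold on this scale, where 5.86% of all assessed genes were at least 2-fold higher and 8.97% at least 2-fold lower. With library totals as the scale CARS2 was at 0.98, just under 2-fold. SARS2, for serine (chr19:38915266-38930896, minus strand), had 492 counts in shDEPDC1B and 283 in shNC (0.88 [0.66, 1.09]). FARS2, for phenylalanine (chr6:5261044-5829192, plus strand), had 412 counts in shDEPDC1B and 274 in shNC (0.67 [0.44, 0.89]). Smaller ratios above equality were those of VARS2 (0.53 [0.08, 0.98], with 101 and 74 counts in the same order), YARS2 (0.41 [0.27, 0.56]), WARS2 (0.40 [0.14, 0.66]), TARS2 (0.24 [0.10, 0.38]) and RARS2 (0.15 [0.01, 0.29]).

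At the other end, LARS2 (chr3:45388506-45549421, plus strand), the mitochondrial leucyl enzyme, had 295 counts in shDEPDC1B and 569 in shNC, or 16.2 and 29.5 CPM, a log2 ratio of -0.87 [-1.08, -0.66]. EARS2 (chr16:23522014-23557731, minus strand), for glutamate, had 749 counts in shDEPDC1B and 1230 in shNC (-0.64 [-0.77, -0.50]). HARS2 was at -0.27 [-0.41, -0.12] and IARS2, the most abundant of the set, at -0.22 [-0.27, -0.17]. Intervals that span equality included those of AARS2, MARS2, NARS2 and PARS2, and PARS2, with 61 counts in shDEPDC1B and 86 in shNC, was too thinly covered to show a difference of its size (-0.42 [-0.91, 0.07]).

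EARS2 has a further role, because human mitochondria have no glutaminyl enzyme of their own: EARS2 charges the glutamine tRNA with glutamate, and an amidotransferase made of GATB, GATC and QRSL1 then converts it. Of these subunits, GATC had 1115 counts in shDEPDC1B and 763 in shNC (0.63 [0.49, 0.76]), and GATB and QRSL1, named outside the rule to complete the enzyme, were at -0.24 [-0.48, -0.0047] and 0.03 [-0.14, 0.21].

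**Figure D2:**
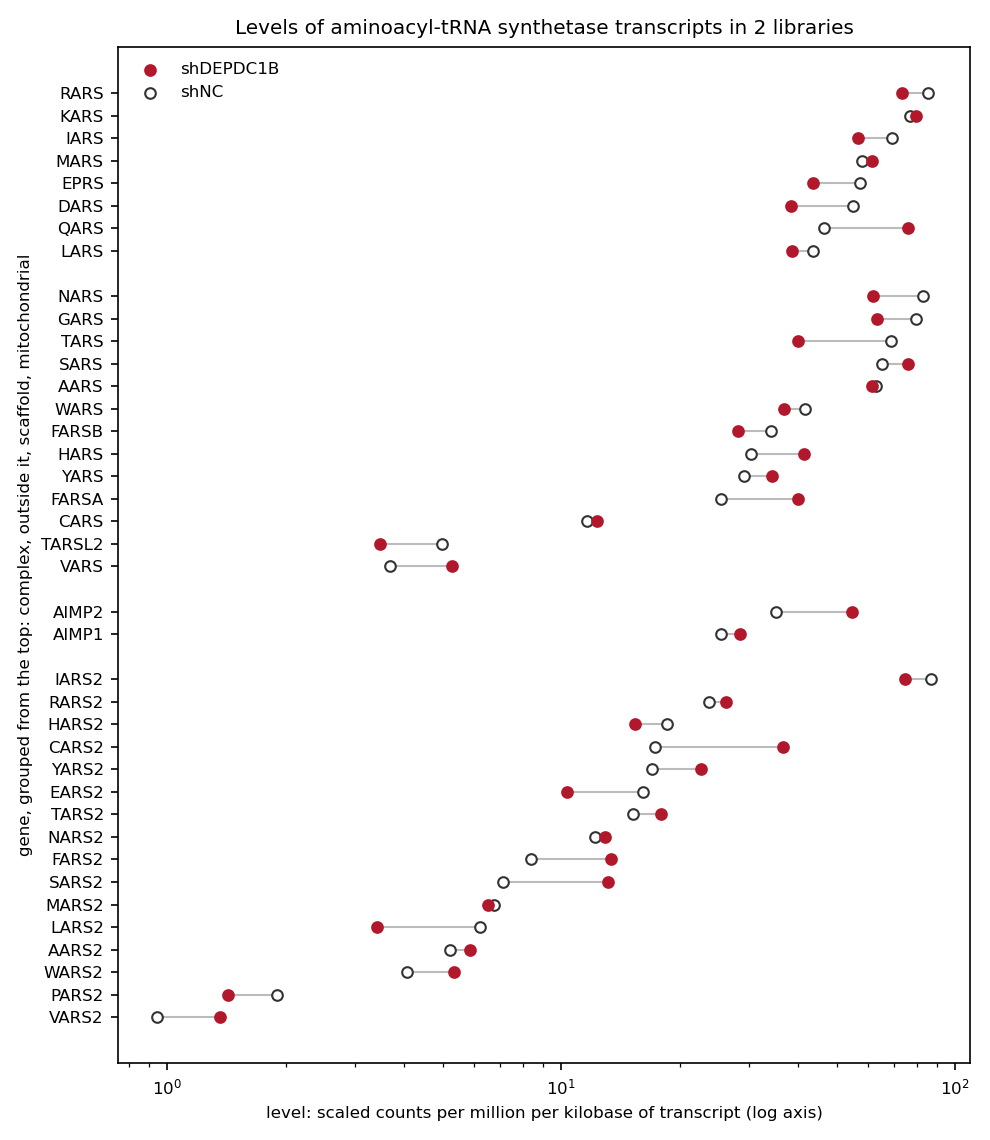
Level of 39 of the 40 genes in CPM per kilobase of its longest coding transcript (x axis, log scale) in shDEPDC1B (filled) and shNC (open), with genes on the y axis grouped by role. Cytosolic enzymes fill most of the upper range and mitochondrial ones most of the lower, but the mitochondrial IARS2 lies high, at 74.7 in shDEPDC1B and 87.0 in shNC, and the cytosolic CARS, TARSL2 and VARS lie low. The levels of CARS, VARS and VARS2 may be understated, because their deposited values are not whole hundredths.

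On the scale of levels per kilobase, cytosolic enzymes were more abundant. Their median level was 41.2 CPM per kilobase in shDEPDC1B and 55.2 in shNC, and that of mitochondrial enzymes was 13.1 in shDEPDC1B and 12.2 in shNC. Lengths are those of the longest annotated coding transcript, which may not be the one expressed. In shNC the 20 highest levels were those of 18 cytosolic enzymes, AIMP2 and 1 mitochondrial enzyme, IARS2. By level, KARS ranked 1 in shDEPDC1B and 5 in shNC, QARS 3 and 13, and TARS 15 and 7. Among all counts of the family, the mitochondrial enzymes held 20.4% [20.1, 20.7] in shDEPDC1B and 19.2% [18.9, 19.4] in shNC, and the family held 0.382% [0.379, 0.385] of the library in shDEPDC1B and 0.433% [0.430, 0.437] in shNC. These sums include CARS, VARS and VARS2, whose counts may be understated, and the intervals do not cover that.

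Mitochondrial and cytosolic genes for the same amino acid can be set beside each other in 18 pairs, in which EPRS stands for both glutamate and proline and FARS2 is set beside both FARSA and FARSB. The ratio of the mitochondrial gene was the higher in 13 pairs, 8 of them with intervals that do not overlap, and that of the cytosolic gene in 5, 3 of them with intervals apart. These intervals cover counting error alone, and those of 73.8% of all assessed genes excluded equality. How often intervals lie apart in other pairs of genes was not computed, so these counts are not a result about the pairs. The widest difference was for threonine, with TARS2 at 0.24 [0.10, 0.38] and TARS at -0.79. For cysteine CARS2 was at 1.08 and CARS at 0.08, and for tryptophan WARS2 was at 0.40 and WARS at -0.17. Histidine showed the widest difference the other way, with HARS2 at -0.27 and HARS at 0.44, followed by leucine, with LARS2 at -0.87 and LARS at -0.18. In 7 pairs, among them those for isoleucine, valine and proline, the intervals overlapped. In 14 pairs the cytosolic gene has the longer transcript. After the length trend had been subtracted the mitochondrial gene was the higher in 9 of 18, and after a linear fit on length and GC content in 12 of 18.

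**Figure D3:**
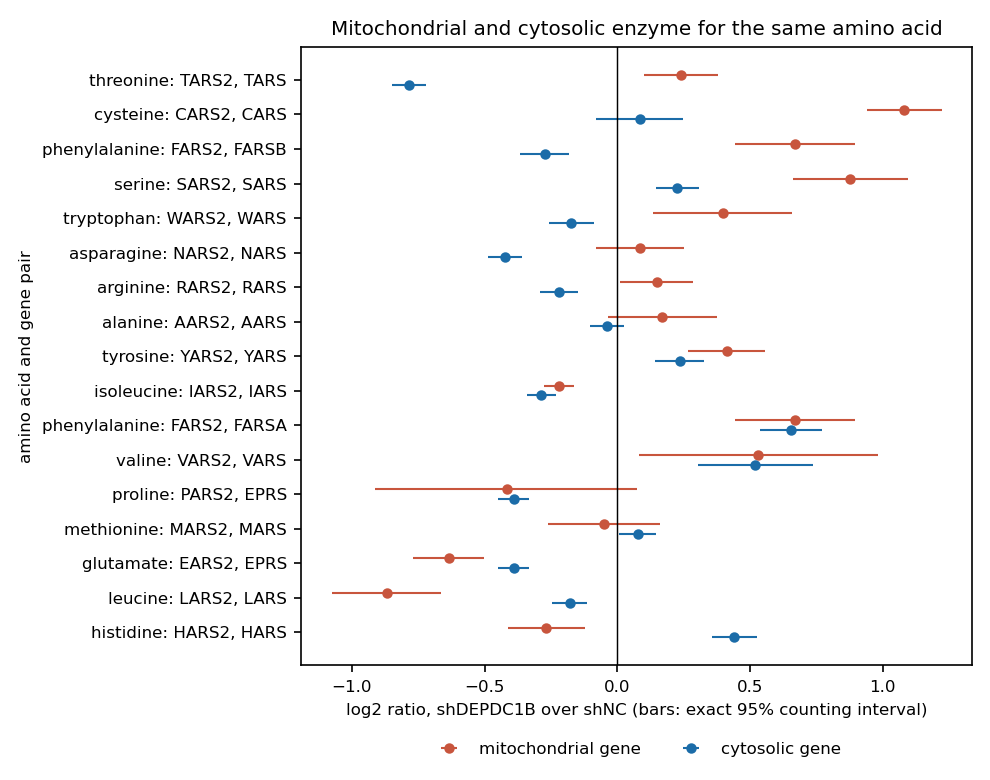
Log2 ratio, shDEPDC1B over shNC (x axis), of the mitochondrial and the cytosolic gene for the same amino acid in 17 of the 18 pairs (y axis, ordered by their difference), with exact 95% counting intervals as bars. The mitochondrial gene lies to the right in the upper 12 rows, from threonine to valine, and to the left in the lower 5, down to histidine.

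Transcript length moved with these ratios, as it did across the whole table. Assessed genes in the length decile of 1436 to 1957 nucleotides had a median log2 ratio of 0.45, and those in the decile of 4733 to 5789 nucleotides one of -0.25. Over the 40 members the Spearman correlation of the ratio with transcript length was -0.46, and with GC content 0.55, as a description of genes that share the same libraries and are not independent. Within the 21 cytosolic enzymes the correlation with GC content was 0.78 and with length -0.29, and within the 17 mitochondrial enzymes they were 0.44 and -0.51. The median transcript was 3099 nucleotides for cytosolic and 2729 for mitochondrial enzymes. The difference of the medians, mitochondrial minus cytosolic, was 0.32, and it was 0.22 after the length trend and 0.12 after a linear fit on length and GC content. CARS2, LARS2 and TARS stayed past 1.5-fold in both fits, at 0.69, -0.69 and -0.67 after the length trend, whereas QARS (0.55), SARS2 (0.53), FARSA (0.31), FARS2 (0.24) and AIMP2 (0.12) did not in either. EARS2 was at -0.57 after the length trend, just short of 1.5-fold, and at -0.63 after the fit on length and GC content. The part of length and GC content in the differences was not tested beyond these fits.

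**Figure D4:**
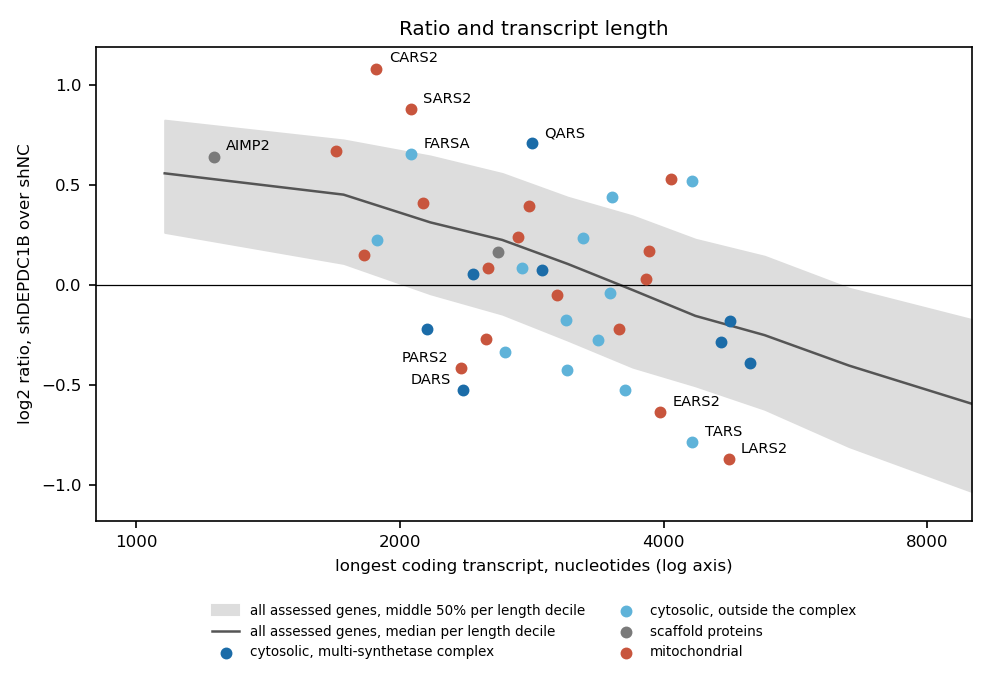
Log2 ratio, shDEPDC1B over shNC (y axis), against the longest coding transcript in nucleotides (x axis, log scale). Points are the 40 members by role, the line and the grey band the median and the middle 50% of all assessed genes per length decile. CARS2 (1.08) lies farthest above the line and DARS (-0.52) farthest below it.

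Several members start next to another gene on the opposite strand. In the GENCODE 29 annotation 12 members have a protein-coding gene start within 1000 bases on the other strand, which makes 11 gene pairs, since HARS and HARS2 are each other's neighbour. Both genes were higher in 2 pairs, both lower in 1, and on opposite sides of equality in 3, and in 5 at least 1 interval spans equality. Over all assessed genes 38.9% of intervals lay above equality and 34.9% below. Other neighbouring genes were not counted in this way, so these counts are not a result about the pairs. By their outermost GENCODE 29 bounds, HARS and HARS2 start 436 bases apart with overlapping first parts, HARS higher and HARS2 lower. The RefSeq starts used for the promoter windows differ from these, and from them the 2 genes run apart without overlap. Their promoter windows, chr5:140691321-140691620 and chr5:140691205-140691504, share 184 bases, and that shared part holds 2 copies of the ETS core. Both copies are printed on the HARS strand with the 7 letters in capitals, at chr5:140691435-140691464 and chr5:140691361-140691390 (minus strand).

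Upstream copy: cagcttcggcaCTTCCGGgaggagccggaa

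Downstream copy: cgactcgatagCCGGAAGtcatccttgctg

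The same letters read on the plus strand are in the window of HARS2, so a shared stretch stands beside ratios of 0.44 and -0.27. AIMP2 starts 120 bases from PMS2, a mismatch repair gene, which had 678 counts in shDEPDC1B and 1178 in shNC (-0.72 [-0.86, -0.58]) against 0.64 for AIMP2. FARS2 starts 105 bases from LYRM4, which serves iron-sulfur cluster assembly and was at 0.60 [0.41, 0.79], close to FARS2 at 0.67. SARS2 and the mitochondrial ribosomal protein gene MRPS12 (0.36 [0.20, 0.51]) were both higher. The sources used here do not say whether strand was kept, so reads from the overlapping parts of such genes cannot be told apart. The same limit applies to other members whose span overlaps a gene on the opposite strand. AIMP2 overlaps EIF2AK1, which had 4001 counts in shDEPDC1B and 3366 in shNC, and HARS overlaps WDR55 (1139 and 676). Further such pairs are YARS2 and DNM1L, YARS and S100PBP, AIMP1 and TBCK, and MARS and DDIT3.

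Genes that work beside the enzymes were taken in 3 lists drawn up from general knowledge. The 17 cytosolic partner genes carry, export, proofread or recycle tRNA, or have other roles, as the scaffold protein EEF1E1 does. Of the 17, 8 were at least 1.5-fold higher (47.1%, against 19.2% of all assessed genes) and 2 lower (11.8%, against 19.6%). The median log2 ratio was 0.51, against 0.04 for all assessed genes, and it was 0.41 after the length trend and 0.27 after the fit on length and GC content. Among the 8, EEF1G, a subunit of the factor that exchanges the nucleotide bound to the tRNA carrier EEF1A1, had 36090 counts in shDEPDC1B and 20885 in shNC (0.87 [0.84, 0.89]). PTRHD1 was at 0.97 [0.80, 1.13], PSTK, a kinase in selenocysteine tRNA synthesis, at 1.11 [0.67, 1.57] and EEF1D at 0.69 [0.63, 0.76], although the deposited value of EEF1D is not in whole hundredths. The 2 lower genes were XPOT, which exports tRNA from the nucleus, with 2382 counts in shDEPDC1B and 3876 in shNC (-0.62 [-0.70, -0.55]), and SEPSECS, the enzyme that acts after PSTK (-0.67 [-1.03, -0.31]).

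Among 22 mitochondrial partner genes the median was -0.01, and 4 were at least 1.5-fold higher (18.2%, close to the 19.2% of all assessed genes), with none lower. They were the initiation factor MTIF3, with 627 counts in shDEPDC1B and 280 in shNC (1.24 [1.04, 1.45]), GATC, the recycling factor MRRF (0.60 [0.46, 0.75]) and the elongation factor TSFM (0.60 [0.46, 0.73]). Of 18 amino acid response genes 3 were higher and 3 lower (16.7% each, against 19.2% and 19.6% of all), with a median of -0.23. The higher ones were CEBPB (0.99), DDIT3 (0.85) and SESN2 (0.76), and the lower ones EIF2AK3, which encodes PERK (-1.76 [-1.99, -1.53]), ATF5 (-0.75) and PSPH (-0.65), an enzyme of serine synthesis.

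**Figure D5:**
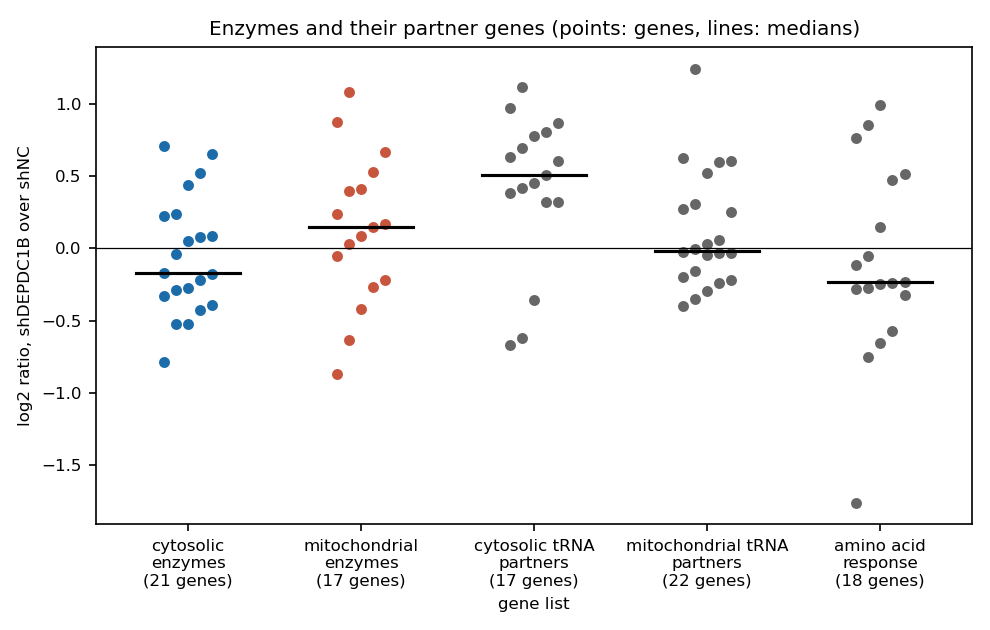
Log2 ratio, shDEPDC1B over shNC (y axis), of each gene (points) with the median of its list (bars), for the 2 enzyme sets and 3 partner lists (x axis). The medians are -0.17 for cytosolic and 0.15 for mitochondrial enzymes, 0.51 and -0.01 for cytosolic and mitochondrial partners and -0.23 for the amino acid response.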

How the data were processed

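The deposited table holds expected counts for gene symbols. Bowtie2, RSEM and the build hg38 are named in the submitters' processing notes, and the sources used here give no versions and no annotation. The authors' values are not scaled for depth. They were rounded to whole numbers and scaled with TMM factors of edgeR 4.0.16 in R 4.3.3 (0.967 for shDEPDC1B, 1.03 for shNC). Ratios carry exact Clopper-Pearson 95% intervals (scipy 1.17.1). A gene was assessed if its higher library had at least 30 counts. RSEM shares reads between similar genes by a model, and reads carry no molecular identifiers, so intervals cover counting error only. Transcript length and GC came from the longest coding transcript in GENCODE 29 (GRCh38), found for 94.0% of assessed genes; the length trend is a lowess with a span of 0.3. Promoter windows are from RefSeq, and 74.5% of assessed genes matched by symbol. The ratio, its interval and the 1.5-fold rule were tested on simulated counts with counting noise alone, which holds no variation between cultures or libraries. The other steps were not tested in this way.

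The members, lists, letters searched and naming rule were chosen with earlier results of these data known. The rule names the members, DEPDC1B, ATF4 and, per partner list and direction, up to 4 genes at 1.5-fold with at least 100 counts. Neighbouring genes, EEF1E1, GATB and QRSL1 were named after their values were seen. The values of 1 member are not reported here, though counts and medians over the members include it. Alternatives covered scaling (DESeq2 1.42.0 size factors, totals, upper quartile), count minimums, a prior count, length and GC fits, protein-coding genes alone, list makeup and the threshold; the count of pairs under them was added after the data were seen.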

Additional observations from a re-analysis of the deposited data

How the results depend on the processing

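No paired analysis was possible because each group has 1 library. For the same reason no library could be left out, and culture or preparation cannot be told apart from the hairpin. The direction of all 9 members past 1.5-fold was the same under all alternatives run. Scaling by library totals moved the log2 ratio of every gene by -0.10 and gave 5 members lower and 3 higher, in place of 3 and 6, with lower genes 61.2% in place of 50.4% of all genes past 1.5-fold. After the length and GC fit 1 member was higher and 4 lower (PARS2 in addition to the 3), the median of mitochondrial enzymes was 0.026 and the difference of medians 0.12. The mitochondrial gene was then the higher in 12 of 18 pairs. After the lowess on length 3 members were higher (CARS2, VARS and VARS2) and 4 lower (TARS, LARS2, DARS and PARS2, without EARS2), and the mitochondrial gene was the higher in 9 of 18 pairs. That lowess turned the sign of 8 members, 5 of which (AIMP1, LARS, MARS, RARS2 and SARS) had intervals that exclude equality, and the fit on length and GC that of 5, with LARS, MARS and SARS among them. At a 2-fold threshold 1 member was higher and 0 lower. DESeq2 size factors, upper-quartile factors, protein-coding genes alone, other count minimums, a prior count of 2 and both changes of list makeup kept every count and median within 1.5 times or within 0.11, the median half-width of a member's interval. The low count of PARS2 limits what its ratio can show.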
